A study of Mus musculus with 9 samples.

Results

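The genes that encode the Polycomb complexes and the enzymes that set, maintain and remove cytosine methylation were followed as 1 group of 37 members through the differentiation of female mouse embryonic stem cells (mESCs). Members were taken by gene name, and each was read at the genomic window that held the 5′ end of its GENCODE M21 gene. Of 21755 protein-coding genes on chromosomes 1 to 19 and X, 21673 had such a window, and all 37 members were among them. Phf19 had no value in the knockdown at day 7, so 36 members entered every summary, beside the 19607 promoter windows of other protein-coding genes with a value in every library.

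Polycomb repressive complex 2 (PRC2) methylates histone H3 at lysine K27, and Polycomb repressive complex 1 (PRC1) ubiquitinates histone H2A and compacts chromatin. The DNA methyltransferases write cytosine methylation and the TET enzymes oxidise it, which opens a route to its removal. All of these activities are known for their roles in mESC differentiation, and both Polycomb complexes and DNA methylation are known to act on the inactive X chromosome.

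Chromatin accessibility was profiled by nucleosome occupancy and methylome sequencing (NOMe-seq), in which a GpC methyltransferase marks the GpC cytosines that nucleosomes leave exposed in fixed nuclei, so that a higher percent GpC methylation stands for more open DNA. The cells were female FVB/CAST F1 mESC lines that had been grown in 2i medium and then weaned into DME HiHi medium, with FVB/NJ mothers and CAST/EiJ fathers per the methods, and the values merge the reads of both alleles. Undifferentiated cells were taken at day 0. Cells carrying a nonsilencing control hairpin (Nons) or a Smarcc1 knockdown hairpin, which targets a subunit of the BAF nucleosome remodeller, were transduced at day 2, placed under puromycin at day 3 and harvested at days 4, 5, 6 and 7. There was 1 library for each condition and day, hence no replicates, and no difference between a pair of libraries has a replicate check. These files hold no expression values, so neither the knockdown nor the cell type was checked here. A percent averages over cells, so fewer open cells and less opening per cell cannot be told apart.

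Libraries differed as a whole. The median over other promoters ran from 8.86% to 30.4%, both in Nons, and was highest at day 5 and lowest at day 7 in both arms. Read depth is unknown. The share of other promoters at exactly 0%, which sparse reads and a low level both raise, ran from 0.0561% (Nons, day 4) to 5.53% (knockdown, day 7). Each member was therefore also ranked within its own library, as the percentile of its window among other promoters, where 50 is the middle and a shift of a whole library has no effect.

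The stretches upstream of 3 members are shown first for reference, and no accessibility value was computed from these stretches alone. Phc1 had the highest mean percentile and Tet3 the lowest, and Pcgf3 was the only member lower in the knockdown on all 4 days on the percent scale. A start inside Tet3, of transcript Tet3-202, is shown as well and was chosen after its values were seen, since it was above the Tet3 5′ end in all 9 libraries. Each line gives the 250 bases before the start, 5′ to 3′ on the strand of the gene, from GRCm38, the assembly of mm10. Capitals mark GpC dinucleotides, the sites the methyltransferase can reach, except those inside CGCG, which were left in lower case.
Phc1 5′ end (chr6:122340562-122340811, minus strand): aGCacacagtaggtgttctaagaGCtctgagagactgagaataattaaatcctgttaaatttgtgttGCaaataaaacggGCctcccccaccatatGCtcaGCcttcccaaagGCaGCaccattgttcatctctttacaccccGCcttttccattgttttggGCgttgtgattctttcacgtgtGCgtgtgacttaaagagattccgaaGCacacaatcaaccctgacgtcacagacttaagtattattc
Pcgf3 5′ end (chr5:108460982-108461231, plus strand): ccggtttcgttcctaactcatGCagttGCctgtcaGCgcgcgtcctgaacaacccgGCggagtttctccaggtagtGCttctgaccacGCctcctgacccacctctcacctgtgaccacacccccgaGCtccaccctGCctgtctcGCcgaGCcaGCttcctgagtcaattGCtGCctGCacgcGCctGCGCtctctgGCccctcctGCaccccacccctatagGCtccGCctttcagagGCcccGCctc
Tet3 5′ end (chr6:83459085-83459334, minus strand): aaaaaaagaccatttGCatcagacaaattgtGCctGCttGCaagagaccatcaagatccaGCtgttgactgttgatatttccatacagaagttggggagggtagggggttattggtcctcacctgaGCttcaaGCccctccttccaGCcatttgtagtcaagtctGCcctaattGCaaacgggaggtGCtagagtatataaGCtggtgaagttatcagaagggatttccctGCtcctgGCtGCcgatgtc
Tet3-202 start (chr6:83441676-83441925, minus strand): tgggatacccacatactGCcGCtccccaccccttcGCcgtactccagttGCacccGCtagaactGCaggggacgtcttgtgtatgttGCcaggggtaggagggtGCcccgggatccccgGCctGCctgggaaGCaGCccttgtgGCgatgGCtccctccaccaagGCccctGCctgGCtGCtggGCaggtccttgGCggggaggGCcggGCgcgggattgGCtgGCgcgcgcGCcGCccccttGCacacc
The 250 bases before Phc1 held 12 GpC in capitals and 7 CpG dinucleotides, and those before Pcgf3 held 23 and 16. The Tet3 5′ end had 15 GpC in capitals but only 2 CpG, whereas the Tet3-202 start had 27 and 17. These stretches are a small piece of the windows measured, which spanned 1663 to 3189 bp for members, with a median of 2171 bp.

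The median accessibility over promoters of the Polycomb and DNA methylation machinery was above that of other protein-coding promoters in every library. The median over 36 members was 18% before differentiation, 26.4%, 37.6%, 20.4% and 12.7% under Nons, and 15.6%, 37.2%, 17.6% and 14.5% after Smarcc1 knockdown, at days 4, 5, 6 and 7 in that order, as throughout. Over other promoters it was 15% before differentiation, 19.1%, 30.4%, 14.3% and 8.86% under Nons, and 15%, 26.2%, 16.1% and 9.68% after Smarcc1 knockdown. The member median was the higher of the pair in 9 of 9 libraries, by 0.587 points (knockdown, day 4) to 11 points (knockdown, day 5). Averaged over the 9 libraries the excess was 5.04 points (SD 3.25), and 2.60 points (SD 2.91) over promoters of the same GC decile, where the mean of the members' median percentile was 59.0 in place of 67.9 and stood at 44.5 and 45.4 in the knockdown at days 4 and 6. Over promoters of the same CpG decile, a comparison chosen after seeing the data, the excess was 1.14 points (SD 2.12). The ranges overlapped widely all the same, since between 21 and 30 of 36 members stood above the middle of other promoters in a given library. The 8 DNA methylation and TET members alone had a median below other promoters at day 0 (11.9% against 15%) and in Nons at day 4 (18.1% against 19.1%). Their median was also lower in the knockdown at days 4 (14.98% against 15%) and 5 (21.9% against 26.2%). No test was run on the list.

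**Figure D1:**
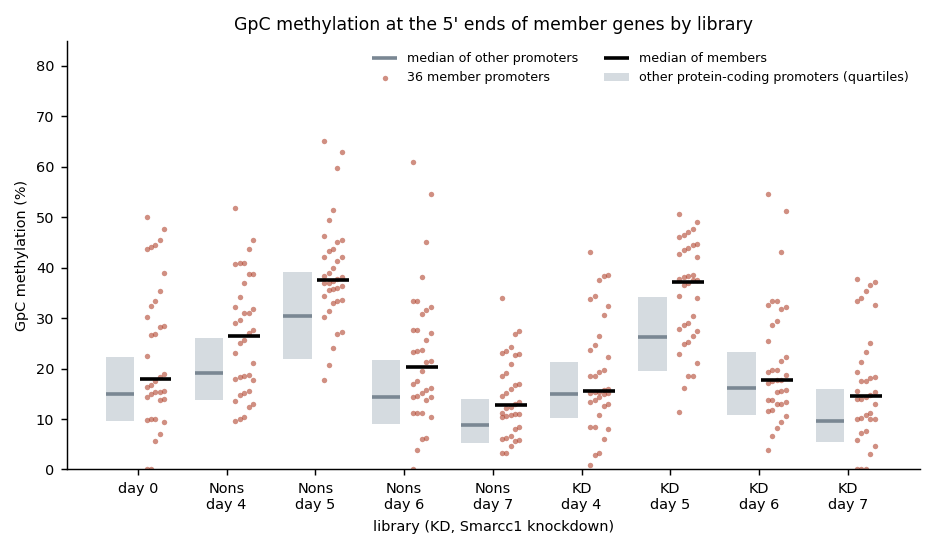
Percent GpC methylation of the 36 member promoters in each of the 9 libraries (points, 1 per member), with the member median and the median and quartiles of 19607 other protein-coding promoters. The member median lies above that of other promoters in all 9 libraries, with the smallest gap in the knockdown at day 4.

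By rank, 30 of 36 members had a mean percentile over the 9 libraries above 50, which is 83.3%, against 49.6% of other promoters. A mean percentile above 75 was held by 11 members (30.6%) and by 9.42% of other promoters. These were, from the top, Phc1, L3mbtl2, Suz12, Pcgf2, Pcgf6, Pcgf3, Ezh2, Tet2, Pcgf5, Jarid2 and Rbbp4. The 6 members under 50 were Phc2, Tet1, Phf1, Cbx6, Dnmt3l and Tet3. Over the 28 Polycomb members the median of the mean percentiles was 66.7, and over the 8 DNA methylation and TET members it was 50.8. The Polycomb median percent was the higher of the pair in 9 of 9 libraries, with 20.7% against 11.9% at day 0. Within CpG decile, a comparison described further on, the same medians were 52.1 and 54.4, in the opposite order, so the split did not hold among promoters of like CpG content. It was not tested. The split was also read at gene 5′ ends only. For Dnmt1, Dnmt3l, Tet1 and Tet3, another window holds the most annotated protein-coding transcript starts. The same is true of the Polycomb members Cbx6, Cbx7, Jarid2 and Pcgf5.

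**Figure D2:**
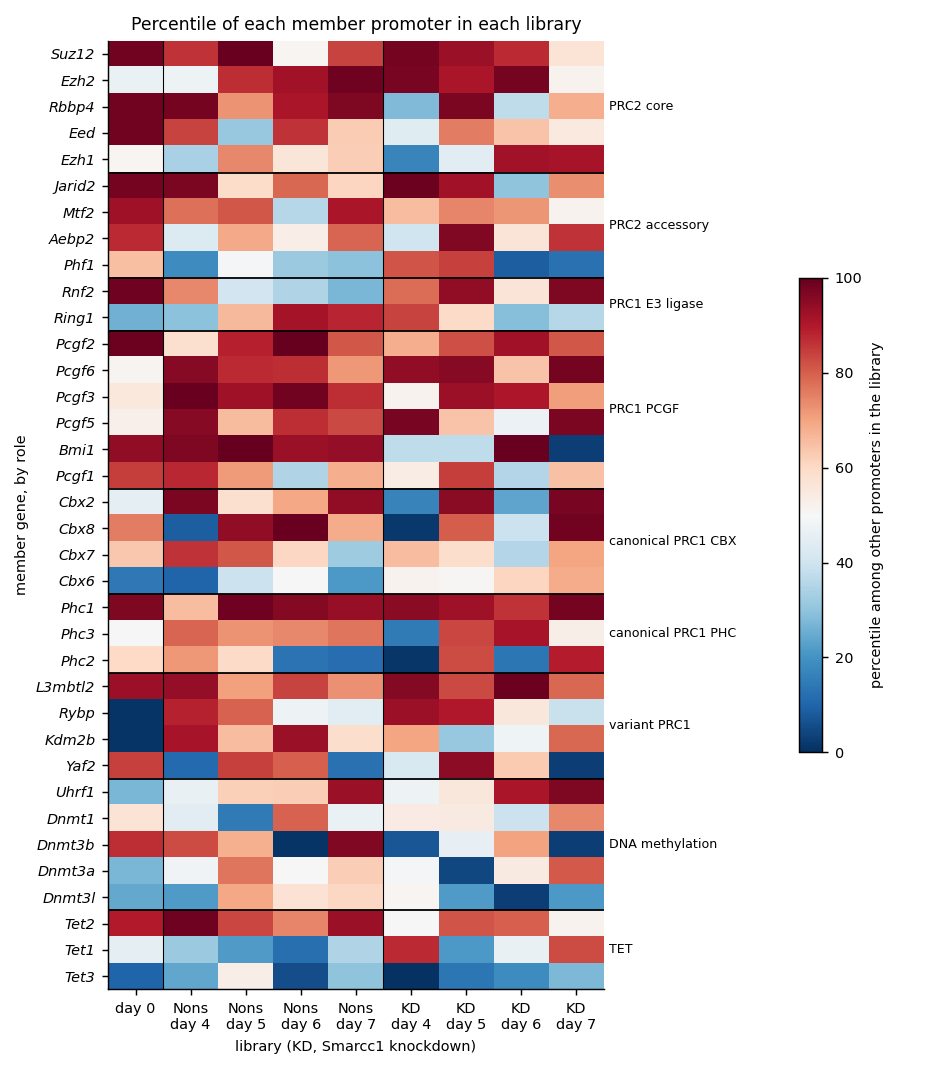
Percentile of each member promoter (rows, grouped by role) among other protein-coding promoters in each library (columns). Phc1 and L3mbtl2 are above 50 in all 9 libraries and Tet3 in 1, while Bmi1, Cbx8 and Dnmt3b take values near both ends of the scale.

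Among core PRC2 subunits, the Suz12 window (chromosome 11, 79992169 to 79994339), at the gene for the zinc finger scaffold of the complex, had 44.4% before differentiation, 31%, 63%, 14.5% and 16.9% under Nons, and 38.6%, 44.7%, 29.4% and 11.1% after Smarcc1 knockdown. Its mean percentile was 83.7 (SD 17.9, n = 9), where the SD runs over 9 libraries of different conditions and days, and it was above the other-promoter median in all 9 libraries. Ezh2, the main histone methyltransferase of PRC2, had a mean percentile of 78.9, with a range of 46.9 to 98.6. Ezh1 (chromosome 11, 101226344 to 101228962), its less active paralogue, was the lowest core subunit with 15.3% before differentiation, 15.6%, 38.9%, 15.8% and 11% under Nons, and 8.51%, 24.8%, 33.3% and 25% after Smarcc1 knockdown, a mean percentile of 58 (SD 25.1, n = 9). The 5′ end of Ezh1 lies 119 bp from the edge of its window, so that 4.58% of the window is inside the gene. Rbbp4, a histone chaperone found in many complexes, and Eed, which binds methylated H3, had mean percentiles of 76.3 and 66.7. The Rbbp4 window also holds the 5′ end of the divergent gene Zbtb8os, so its value belongs to both promoters.

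Jarid2 led the accessory PRC2 subunits. This gene encodes a DNA-binding cofactor that helps PRC2 find its targets, and its window (chromosome 13, 44727944 to 44730243) had 43.8% before differentiation, 40.9%, 33.3%, 23.3% and 10.7% under Nons, and 43.2%, 43.6%, 11.8% and 15.4% after Smarcc1 knockdown. The values at day 0 and at day 4 of both arms had percentiles of 96.9 or higher, and the one in the knockdown at day 6 was at 29.9. Phf1 (chromosome 17, 26931324 to 26933269), a Polycomb-like protein, was the lowest accessory subunit with 19% before differentiation, 12.3%, 30.2%, 10.3% and 5.88% under Nons, and 23.8%, 38.4%, 6.67% and 2.99% after Smarcc1 knockdown. It stood above the other-promoter median in 3 of 9 libraries. Its relative Mtf2 had a mean percentile of 71.3 and the zinc finger subunit Aebp2 had 67.9. Phf19, the third Polycomb-like gene, had 29.6% before differentiation, 23.5%, 37.7%, 5% and 10.6% under Nons, and 7.84%, 43.9% and 8.51% after Smarcc1 knockdown at days 4, 5 and 6.

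The genes for the catalytic subunits of PRC1 were intermediate. Rnf2 (chromosome 1, 151498656 to 151501340), which encodes the dominant E3 ligase in mESCs, had 47.8% before differentiation, 25.7%, 27.3%, 11.1% and 5.56% under Nons, and 22.4%, 46.2%, 17.6% and 32.6% after Smarcc1 knockdown. Its mean percentile was 44.1 over the Nons libraries and 81.3 over the knockdown libraries. Its paralogue Ring1 (chromosome 17, 34023263 to 34026162) had 9.76% before differentiation, 14.8%, 35.9%, 31.6% and 19.1% under Nons, and 24.7%, 28.9%, 11.6% and 7.14% after Smarcc1 knockdown, a mean percentile of 56.6. The Ring1 window also holds the 5′ ends of Gm26940, Mir219a-1 and Mir219c.

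PCGF proteins define the PRC1 subtypes, and their promoters were in the upper part of the ranking, with the 6 mean percentiles between 65 and 83.3. Pcgf2 (chromosome 11, 97698675 to 97700958), of canonical PRC1, had 50% before differentiation, 21.1%, 46.4%, 61% and 15.9% under Nons, and 19.2%, 37.5%, 33.3% and 18.4% after Smarcc1 knockdown. Its lowest percentile was 58, and its range of 41.7 was among the 3 narrowest of the members. Pcgf1 (chromosome 6, 83076800 to 83078815), the partner of Kdm2b in a variant complex, was the lowest of the role with 26.8% before differentiation, 31.8%, 37.8%, 11.1% and 12.2% under Nons, and 15.8%, 38.6%, 13% and 12.9% after Smarcc1 knockdown. Pcgf3 (chromosome 5, 108459576 to 108462261), which acts with Pcgf5 in a variant PRC1 linked to the inactive X, had 16.3% before differentiation, 51.8%, 49.4%, 45.2% and 18.5% under Nons, and 15.4%, 44.5%, 31.8% and 14.7% after Smarcc1 knockdown. The Nons values of Pcgf3 at days 4 and 6 ranked at 99.5 and 98.2, whereas day 0 was near the middle at 55.3. Pcgf6 and Pcgf5 had mean percentiles of 82.8 and 76.6. Bmi1 (chromosome 2, 18676313 to 18678197), the paralogue of Pcgf2 and a regulator of stem cell self-renewal, had 35.3% before differentiation, 40.7%, 65%, 33.3% and 23.5% under Nons, and 12.5%, 22.9%, 54.5% and 0% after Smarcc1 knockdown. It was at a percentile of 93.0 or higher at day 0, in all 4 Nons libraries and in the knockdown at day 6, and below the middle in the other 3 knockdown libraries.

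Chromodomain CBX proteins read methylated H3 for canonical PRC1. Cbx2 (chromosome 11, 119022357 to 119024228) was the highest of the 4 with 14% before differentiation, 40.8%, 33%, 19.6% and 24.3% under Nons, and 8.47%, 47.2%, 10.5% and 35.3% after Smarcc1 knockdown, and its mean percentile of 66.4 (SD 32.2, n = 9) hid values at both ends, with 4 libraries at or above 94.5 and 2 at or below 23.8. Cbx7, the main CBX protein of mESCs, had a mean percentile of 61.4. Cbx8 (chromosome 11, 119040483 to 119042456) had the widest range of all members, from 1.87 to 99.4, with 22.4% before differentiation, 9.68%, 51.4%, 54.5% and 12.3% under Nons, and 3.33%, 36.5%, 13.8% and 37.8% after Smarcc1 knockdown. Cbx6 (chromosome 15, 79834454 to 79836570) was the lowest with 7.04% before differentiation, 10.1%, 26.9%, 14.3% and 4.72% under Nons, and 15.4%, 26.4%, 18.8% and 14% after Smarcc1 knockdown. Only 11.1% of the Cbx6 window is inside the gene.

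Polyhomeotic proteins hold PRC1 in clusters through their SAM domain. Phc1 (chromosome 6, 122338190 to 122340868), an mESC-enriched member, had 39% before differentiation, 23.1%, 59.8%, 38.1% and 23.1% under Nons, and 33.8%, 43.9%, 28.6% and 36.7% after Smarcc1 knockdown. It had the highest mean percentile of the machinery, 91.3 (SD 10.4, n = 9), and had a percentile of 86.2 or higher in 8 of 9 libraries, with Nons at day 4 the exception at 65.5. Phc2 (chromosome 4, 128652680 to 128654858) was the lowest of the 3 with 17.5% before differentiation, 25%, 33.5%, 6.15% and 3.23% under Nons, and 2.86%, 37.6%, 8.16% and 23.3% after Smarcc1 knockdown. The value of Phc3 lay between them, at a mean percentile of 66.1.

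Members of variant PRC1 ranged widely. L3mbtl2 (chromosome 15, 81662295 to 81664274), the MBT domain subunit of the complex with Pcgf6, had 33.3% before differentiation, 37%, 37.4%, 25.8% and 13.4% under Nons, and 34.5%, 37.7%, 51.2% and 17.5% after Smarcc1 knockdown. Its percentiles ran from 70.4 to 99.2, the narrowest range of the members. The Rybp and Kdm2b windows were at 0% at day 0, which ranked them at 0.890, and had mean percentiles of 59.8 and 59.6 over all libraries. Kdm2b, which brings PRC1 to CpG islands, shares its window with the antisense gene A930024E05Rik. Yaf2 (chromosome 15, 93334127 to 93336998), the paralogue of Rybp, was the lowest of the role with 26.7% before differentiation, 10.4%, 43.7%, 23.7% and 3.33% under Nons, and 13.5%, 46.5%, 19.4% and 0% after Smarcc1 knockdown. Its 5′ end lies 63 bp from the edge of the window.

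At their gene 5′ ends, genes of DNA methylation had a median of mean percentiles near the middle of all promoters, at 51.2. Inner starts are given further on. Uhrf1 (chromosome 17, 56301803 to 56303872), which guides the maintenance enzyme to hemimethylated DNA, was the highest with 10% before differentiation, 18.3%, 34.4%, 17.5% and 22.7% under Nons, and 14.5%, 27.8%, 32.2% and 33.3% after Smarcc1 knockdown, a mean percentile of 64.6 (SD 24.2, n = 9). The maintenance methyltransferase gene Dnmt1 had a mean percentile of 51.5 and the de novo methyltransferase gene Dnmt3a had 50.4. Only 5.75% of the Dnmt1 window is inside the gene. Dnmt3b (chromosome 2, 153648049 to 153650073), the other de novo enzyme, had 28.3% before differentiation, 29.1%, 36.4%, 0% and 26.9% under Nons, and 6.0%, 25.2%, 21.6% and 0% after Smarcc1 knockdown. It was at 0% in Nons at day 6 and in the knockdown at day 7, and at a percentile of 96.3 in Nons at day 7. Dnmt3l (chromosome 10, 78040907 to 78042569), a cofactor without catalytic activity, was the lowest with 9.46% before differentiation, 13%, 37%, 16.1% and 10.6% under Nons, and 15.2%, 18.6%, 3.8% and 4.65% after Smarcc1 knockdown, a mean percentile of 36.6 (SD 23, n = 9).

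The 3 TET genes spanned most of the scale. Tet2 (chromosome 3, 133543836 to 133546269) had 30.3% before differentiation, 45.5%, 43.2%, 21.4% and 22.9% under Nons, and 15.1%, 37%, 25.5% and 10% after Smarcc1 knockdown. It was above the other-promoter median in 9 of 9 libraries, with a mean percentile of 78.1 (SD 17, n = 9). Tet1, the most abundant TET enzyme of mESCs, had a mean percentile of 42.5 at its gene 5′ end, and 25.2 over Nons against 59.3 over the knockdown. Tet3 (chromosome 6, 83459057 to 83460874) had 5.68% before differentiation, 13.5%, 31.4%, 3.85% and 5.94% under Nons, and 0.862%, 16.1%, 9.35% and 5.77% after Smarcc1 knockdown. Its mean percentile of 20.3 (SD 15.8, n = 9) was the lowest of the machinery, and Nons at day 5 was the only library in which it passed the middle. The 5′ end of Tet3 lies 27 bp from the edge of its window. Only 1.54% of the window is inside the gene, so the value is mostly that of upstream sequence.

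Single windows varied strongly between libraries. The SD of a member's percentile over the 9 libraries had a median of 23.2, against 23.1 over other promoters, so most neighbours in the order of mean percentiles did not differ beyond their spread. Phc1 and Tet3, picked here as the top and bottom of that order, did not overlap, as the lowest Phc1 percentile was 65.5 and the highest of Tet3 53.2. The same values picked the pair and gave the gap, so the gap is no test of a difference. Across the 36 member windows the Pearson correlation between libraries had a median of 0.222 over the 36 pairs of libraries, against 0.312 across other promoters. Between the mean over Nons and the mean over the knockdown it was 0.518 for members and 0.668 for other promoters. The points of these correlations are windows of the same genome read in the same libraries, so they describe the order of windows and carry no p-value.

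Sequence content varied along with rank. CpG content, as the ratio of observed to expected CpG dinucleotides, had a median of 0.648 over 37 member windows and 0.372 over other promoters, and 15 of 36 members fell in the top CpG decile of other promoters. Mean percentile and CpG ratio had a Pearson correlation of 0.565 and a Spearman correlation of 0.521 across the 36 members, and 0.741 and 0.760 across other promoters. Tet3, Dnmt3l, Tet1 and Dnmt1 had the lowest CpG ratios of the members, 0.140, 0.173, 0.182 and 0.247. When each member was ranked only among other promoters of its own CpG decile, a comparison chosen after seeing the data, the mean over libraries of the members' median percentile was 54.6 and 20 of 36 members had a mean above 50. The level excess over promoters of the same CpG decile was 1.14 points (SD 2.12 over 9 libraries). In the knockdown at days 4 and 6 the members' median percentile within the CpG decile was 46.2 and 35.8. Set against promoters of like CpG content, the excess was thus smaller than its spread over libraries.

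Members also differed in rank within their CpG decile. L3mbtl2 had a mean percentile of 80.02 within its CpG decile and was above 50 there in 9 of 9 libraries. Pcgf3 had 79.9, Phc1 77.4 and Mtf2 74.4, above 50 in 7, 8 and 8 of 9 libraries. Dnmt1, near the middle of all promoters, was at 63.7 among those of its own decile. Tet3 remained low at 35, and Dnmt3a had the lowest value, 31.8. Position in the window also moved with rank. The 13 members whose 5′ end lies within 250 bp of a window edge had a median mean percentile of 52.8, against 67.9 for the 23 others. The part of this in the order of the members was not tested.

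**Figure D3:**
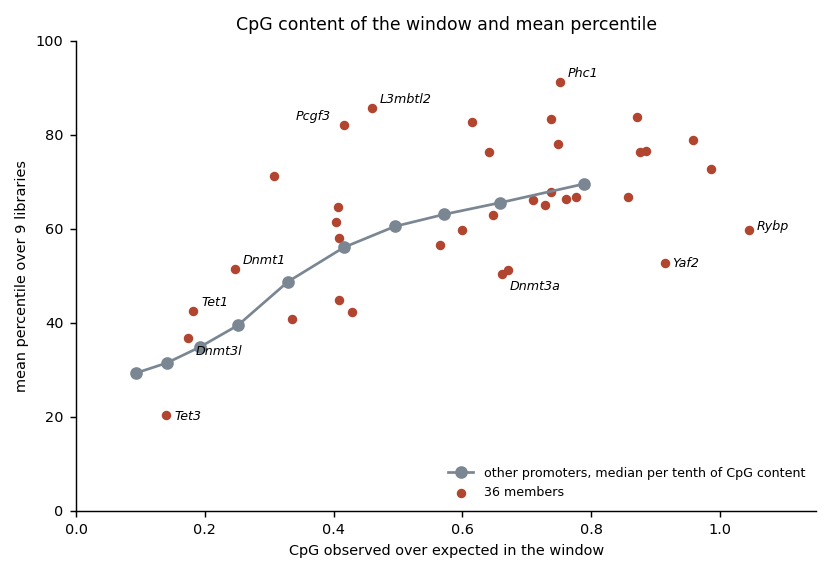
Mean percentile over 9 libraries against the ratio of observed to expected CpG for the 36 member windows (points), with the median of other protein-coding promoters in each of 10 CpG classes (line). Members lie on both sides of the line. Pcgf3 and L3mbtl2 are above it and Tet3 is at the lower left.

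Member promoters were more accessible than member gene bodies in every library. Promoter windows were compared with the median of windows inside the same gene that hold no gene 5′ end, which 35 members had. The median difference was 6.63 points before differentiation, 10.6, 16, 10.2 and 6.79 under Nons, and 2.64, 15.3, 6.4 and 6.08 after Smarcc1 knockdown. Over other genes it was 4.34 points before differentiation, 5.92, 10.3, 4.84 and 2.94 under Nons, and 4.36, 7.12, 5.02 and 2.85 after Smarcc1 knockdown. The member difference was the larger in 8 of 9 libraries, with the knockdown at day 4 the exception. The promoter was above the body in 22 to 32 of 35 members per library, and in 64.7% to 79% of other genes. Phc1, Pcgf2 and Pcgf3 had the largest mean differences, 21.7, 19.9 and 19.3 points, each positive in 9 of 9 libraries. Tet3, Dnmt3l, Tet1 and Cbx6 had a mean promoter value below that of the gene body, with differences of -1.89, -1.22, -0.358 and -0.292 points. Member bodies were also above other bodies in 9 of 9 libraries, by 0.395 to 1.63 points, with 12.8% against 11.5% at day 0. In the knockdown at day 4 the body excess of 1.34 points was larger than the promoter excess of 0.587.

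The gene 5′ end is only 1 of several annotated starts for many members, and the most upstream start need not be the one in use. Other protein-coding starts lay in a window of their own for 18 members, in 24 windows. Of these, 13 had a higher mean percentile than the gene 5′ end and 11 a lower one. The CpG ratio was above that of the 5′ window in 10 of the 13 and below it in 9 of the 11. At the Tet3-202 start (chromosome 6, 83440265 to 83442243), 17409 bp into the gene, values were 11.7% before differentiation, 33.6%, 38.2%, 36.2% and 17.4% under Nons, and 17.5%, 42.1%, 20.4% and 17.2% after Smarcc1 knockdown. It was above the Tet3 5′ end in 9 of 9 libraries and had a mean percentile of 74.7, against 20.3. This is the start printed last among the sequences, with 17 CpG in place of 2. The third Tet3 start, 2692 bp in, was above the 5′ end in 6 of 9 libraries, with a mean percentile of 60.4.

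Starts inside Dnmt1 and Dnmt3a were also higher than the 5′ ends in most libraries. For Dnmt1 the window of 3 transcript starts at 7265 bp (chromosome 9, 20951279 to 20953072) had 18.2% before differentiation, 45.7%, 52.1%, 8.82% and 4.08% under Nons, and 17.9%, 31.7%, 21.9% and 18.4% after Smarcc1 knockdown. It was the higher in 7 of 9 libraries, with mean percentiles of 64.5 and 51.5. Dnmt3a is known to have an internal promoter in mESCs. Its window of 2 starts at 85729 bp (chromosome 12, 3890461 to 3892882) had 7.14% before differentiation, 30.9%, 52.9%, 16.4% and 25% under Nons, and 19%, 31%, 19.5% and 11.5% after Smarcc1 knockdown, against 10% before differentiation, 18.8%, 40%, 14.3% and 11% under Nons, and 14.9%, 11.4%, 17.2% and 18.2% after Smarcc1 knockdown at the gene 5′ end. The inner window was again the higher in 7 of 9, with mean percentiles of 67.3 and 50.4. Dnmt3l had 60.1 at the start 7953 bp in, 35.5 at the one 13388 bp in and 36.6 at the 5′ end. Tet1 had 60.1 at 9878 bp and 47.3 at 28982 bp, against 42.5. Dnmt3b had no other start window.

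Among Polycomb genes, the window of 3 Cbx7 transcripts (chromosome 15, 79932045 to 79934107), 38480 bp into the gene and chosen after its values were seen, had 31.9% before differentiation, 32.7%, 50%, 47.9% and 16.7% under Nons, and 28.7%, 29.4%, 27.9% and 13.6% after Smarcc1 knockdown. It was above the Cbx7 5′ end in 8 of 9 libraries, with mean percentiles of 84.4 and 61.4. The inner Kdm2b start at 89468 bp was above the 5′ end in 4 of 9 libraries, with 65.4 and 59.6. For Phc1, Pcgf2 and Ezh2 the other start had the lower mean percentile. With 1 window for each start and no replicates, these orders describe the libraries and were not tested.

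**Figure D4:**
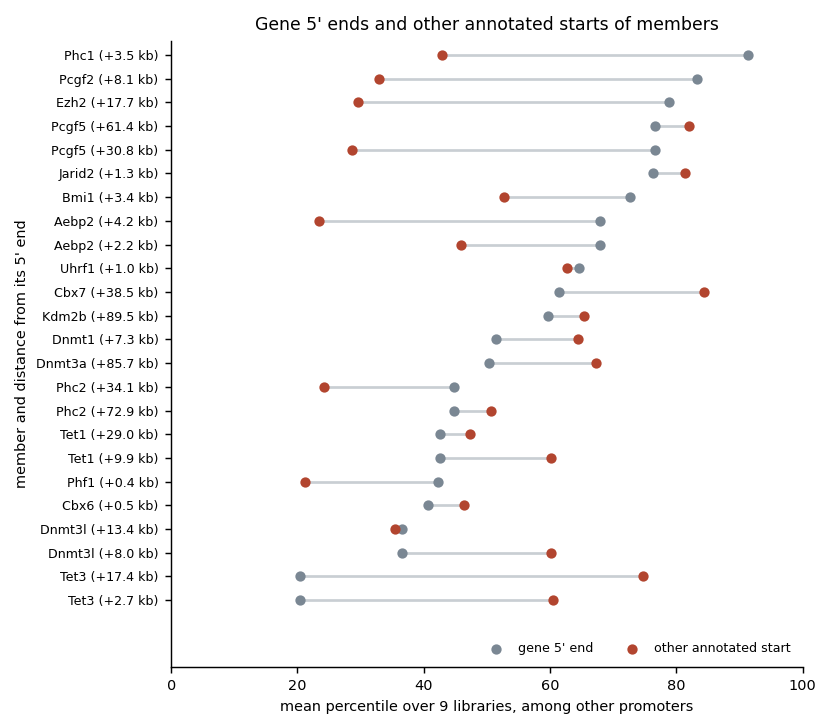
Mean percentile over 9 libraries at the gene 5′ end and at each other annotated protein-coding start of 18 members, with the distance in kb into the gene. Tet3 shows the widest gap in favour of an inner start, and Phc1, Pcgf2 and Ezh2 show wide gaps in favour of the 5′ end.

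In Nons, the share of promoters that rose at each step was similar for members and for other promoters. From day 0 to Nons at day 4 the median difference over members was 3.63 points, against 3.79 over other promoters, and 24 of 36 members (66.7%) were higher at the later day, against 65.0% of other promoters. The step to day 5 was 10.9 points in Nons, against 9.87 over other promoters, with 28 members higher (77.8%, others 82.1%). From day 5 to 6 it was -17.5 points, against -14.1 over other promoters, with 4 members higher (11.1%, others 11.9%). From day 6 to 7 it was -5.64 points, against -5.08, with 11 higher (30.6%, others 27.7%). The members' median change in percentile was 0.297, -5.85, -3.69 and -1.57 at the steps to days 4, 5, 6 and 7. In the knockdown some shares lay further from those of other promoters. From day 0 to the knockdown at day 4 the median difference was -5.04 points, against -0.0803 over other promoters, with 14 members higher (38.9%, others 49.5%). The later steps were 14.9, -14.7 and -1.86 points, against 10.5, -9.3 and -5.94 over other promoters. The members higher at the later day numbered 33 (91.7%, others 85.2%), 6 (16.7%, others 19.5%) and 17 (47.2%, others 26.3%). These differences were not tested. At the last step of the knockdown Bmi1 fell from 54.5% to 0%, the largest fall in percentile of the members at that step.

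A pattern over days shared by both arms was tested by limma on quantile-normalised values, with the arm as a block. Of 829493 windows 7 passed an adjusted p of 0.05, which is 0.000844%, and 0 of 36 members did, with a smallest adjusted p of 0.501 for Yaf2. At an unadjusted p under 0.05 there were 10 members, 27.8% of them, against 18.4% of other promoters. They were Yaf2, Jarid2, Rybp, Pcgf2, Uhrf1, Cbx8, Pcgf5, Suz12, L3mbtl2 and Aebp2. On the percent scale as deposited, where shifts of whole libraries enter the test, 13 members passed, beside 12.7% of all windows, and on the arcsine square root scale 10 did, beside 14.8%. The count therefore depended on whether library-wide shifts were removed.

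The Smarcc1 knockdown was set against Nons on the same day. Over the 36 members the median of knockdown minus Nons was -4.26, -3.63, 1.97 and 3.27 points at days 4, 5, 6 and 7, and over other promoters it was -3.99, -3.4, 1.65 and 0.762 points. The members lower in the knockdown numbered 26 at day 4 (72.2%, others 67.7%), 22 at day 5 (61.1%, others 61.3%), 17 at day 6 (47.2%, others 43.2%) and 16 at day 7 (44.4%, others 46.1%). These shares were near the background on every day. Relative to other promoters the member difference averaged 0.585 points (SD 1.31 over 4 days), which is within its spread. Its sign was not stable, as it was -1.40 with means in place of medians and -0.0565 without day 7. On the percent scale the sign followed the day, negative at days 4 and 5 and positive at days 6 and 7, as it did over other promoters.

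On the percent scale Pcgf3 was the only member with 1 sign on all 4 days. Its knockdown minus Nons differences were -36.4, -4.84, -13.3 and -3.81 points, from the values given above, where the knockdown was lower on each day. The mean was -14.6 points (SE 4.83) with an adjusted p of 0.995 in limma, and -7.33 points without day 4. Being lower on 4 of 4 days held for 1 of 36 members (2.78%) and for 8.30% of other promoters, and being higher on 4 of 4 days for 0 members and 3.88% of other promoters, so the members gave no excess over the background. After quantile normalisation Pcgf3 no longer had 1 sign on all days, since its percentile at day 5 was 93 in the knockdown and 92.4 in Nons. By percentile within the library, Cbx6 was higher in the knockdown on all 4 days, by 41.9, 11.6, 10.7 and 47.3. So were L3mbtl2, by 1.74, 12.4, 15.4 and 5.97, and Rnf2, by 4.16, 54.0, 21.3 and 69.4. After quantile normalisation, and after centring each library, Cbx6 and L3mbtl2 were higher on all 4 days and Rnf2 was not. The share of other promoters with a rise in percentile on all 4 days was not computed, so no excess can be read.

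No window tested passed an adjusted p of 0.05 for a knockdown effect shared by the days (limma with day as a block), so that 0 of 829493 windows and 0 of 36 members were called, which is 0% of both. At an unadjusted p under 0.05 there were 7 members, 19.4% of the 36, against 10.5% of other promoters. Their adjusted p was 0.995 in each case. They were chosen by that p after the values were seen, and 6 of them were lower in the knockdown. Bmi1 had a mean difference of -18.2 points (SE 6.82), with -28.2, -42.2, 21.2 and -23.5 at the 4 days. Rbbp4 had -12.8 points (SE 5.38), Tet2 -11.4 (SE 4.74), Kdm2b -9.88 (SE 4.35) and Dnmt3l -8.63 (SE 4.07), each lower on 3 of 4 days. Rnf2 was the only 1 of the 7 higher in the knockdown, with a mean of 12.3 points (SE 4.59) and differences of -3.36, 18.9, 6.54 and 27 at the 4 days. The means leaned on single days. Without day 6 that of Bmi1 was -31.3 points and without day 5 it was -10.2. The Rbbp4 mean was -6.13 without day 4 and -21.3 without day 5, that of Tet2 -5.01 without day 4, that of Kdm2b -15.6 without day 7, that of Dnmt3l -5.36 without day 5 and that of Rnf2 7.35 without day 7.

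**Figure D5:**
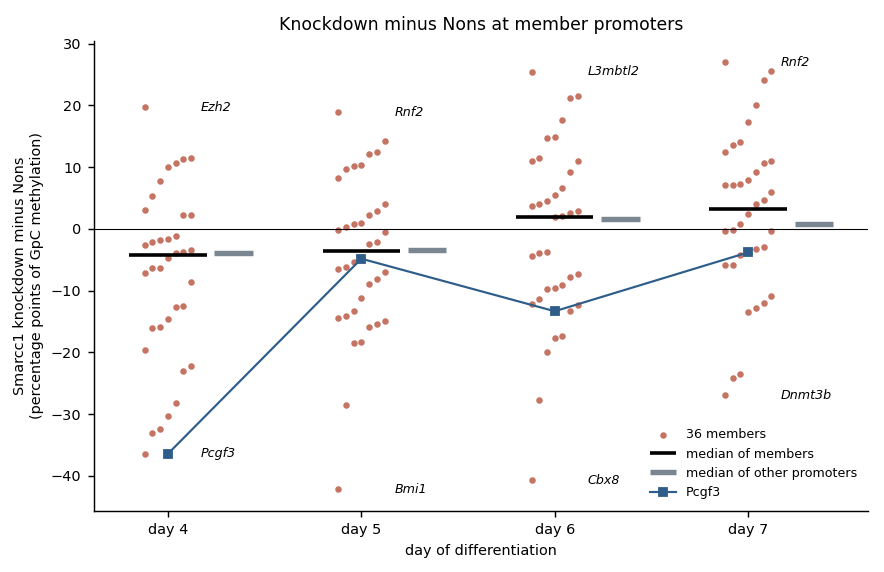
Knockdown minus Nons in percentage points for each of the 36 member promoters at days 4, 5, 6 and 7 (points), with the member median and the median of other promoters. Both medians are below 0 at days 4 and 5 and above 0 at days 6 and 7, and the members spread widely around them.

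Differences of at least 20 points occurred in both directions among the 36 members. The counts make no allowance for level, and in Nons at day 4 the member median was 26.4%, against 19.1% over other promoters. At day 4 there were 7 members lower by that much, beside 5.44% of other promoters, and 0 higher, beside 1.07%. They were Pcgf3, Rbbp4, Cbx2, Tet2, Bmi1, Dnmt3b and Phc2, with differences from -36.4 to -22.1 points. Of these, Rbbp4, Cbx2 and Phc2 were higher in the knockdown at day 5, by 12.4, 14.2 and 4.06 points. At day 5 there were 2 members lower by 20 points or more (Bmi1 and Dnmt3a, others 8.63%) and 0 higher (others 2.42%). Day 6 had 2 lower (Cbx8 and Pcgf2, others 3.81%) and 3 higher (L3mbtl2, Dnmt3b and Bmi1, others 5.63%), and day 7 had 3 lower (Dnmt3b, Ezh2 and Bmi1, others 2.01%) and 4 higher (Rnf2, Cbx8, Pcgf6 and Phc2, others 4.19%). With 1 library on each side, none of these differences was tested. Cbx8 went from -40.8 points at day 6 to 25.5 at day 7, and Ezh2 from 19.7 at day 4 to -24.1 at day 7.

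A wider list of 34 related genes was read in the same way, of which 31 had values in every library (not Bap1, Bcorl1 and Mbd3). The median of their mean percentiles was 60.8, and 25 of 31 were above 50. The highest were Auts2, a cofactor of a variant PRC1, at 86.8, L3mbtl3 at 85.7, the Rbbp4 paralogue Rbbp7 at 84.7 and the DNA glycosylase gene Tdg at 81.1. Of the H3K27 demethylase genes, Kdm6a had 77.6 and Kdm6b 49. In limma 0 of the 31 passed for the knockdown and 0 for the day pattern at an adjusted p of 0.05, and at an unadjusted p under 0.05 there were 1 higher and 1 lower for the knockdown, beside 10.5% of other promoters, and 8 for the day, beside 18.4%. Rbbp7 and Asxl2 were higher in the knockdown on 4 of 4 days, by means of 11.1 and 7.64 points, and Dppa3, which protects DNA methylation marks in the early embryo, was lower on 4 of 4, with a mean of -3.26 points. These counts of 2 and 1 of 31 stand beside 3.88% and 8.30% of other promoters.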

How the data were processed

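Female FVB/CAST F1 mESCs were profiled by NOMe-seq in 9 libraries. Per the methods, the authors used trim_galore for trimming and bismark for alignment to mm10, in which sites that differ between the strains were masked. Methylation calls came from the bismark extractor and were limited to informative GpC positions. The deposited values are the percent GpC methylation, averaged by the authors in Seqmonk over consecutive windows of 200 read positions per the labels, with both alleles merged. The methods describe averages over another number of positions and an enrichment normalisation for plots, but the deposited percent values differ in library median and were treated as not normalised between libraries. Depth per window is not given, so no counting interval was computed.

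Of 833294 windows, 833044 lay on chromosomes 1 to 19 and X and 829493 had a value in every library. Every window end lay inside the GRCm38 chromosome lengths. Genes and transcript starts came from GENCODE M21. Percentiles are mid-ranks among 19607 other protein-coding promoter windows in the same library. Expected CpG was the product of C and G counts over the length without N bases. The members and gene lists were chosen with earlier results of these data known. Named members were the highest and lowest mean percentile of each role, those with 1 sign of knockdown minus Nons on all 4 days, the 3 widest and 3 narrowest percentile ranges, and those called in a test. Inner starts were named for Dnmt1, Dnmt3a, Dnmt3b, Dnmt3l, Tet1, Tet3 and Kdm2b.

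limma 3.58.1 in R 4.3.3 fitted all windows over the 8 libraries of days 4 to 7, with day and arm as terms, and Benjamini-Hochberg adjustment at 0.05. The knockdown term was tested on the percent scale and the day terms after quantile normalisation. Days and arms are not replicates, so the p-values address a shift shared by days or by arms and measure only the spread between these libraries, which may be technical. Tables and figures were made in Python 3.11.15 with pandas 2.3.3, numpy 2.4.6 and matplotlib 3.10.9.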

Additional observations from a re-analysis of the deposited data

Results flagged for a closer look

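The median of knockdown minus Nons over the 36 member promoters had opposite signs at different days, which is why it is listed here. It was -4.26 points at day 4 and -3.63 at day 5, and 1.97 at day 6 and 3.27 at day 7. With 1 library on each side, the difference between days was not tested. Over other promoters the medians were -3.99, -3.40, 1.65 and 0.762 points at the same days, and the members' median change in percentile was between -0.0510 and 1.49.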

How the results depend on the processing

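Of 80 alternatives of the summary values, 64 kept them. For levels, percentiles and differences this means within the spread, and for counts of members it means the same count. Most of the counts that matched were 0 against 0. Against promoters of the same CpG decile, chosen after seeing the data, the level excess of members was 1.14 points and their median percentile 54.6, where all other promoters gave 5.04 and 67.9. Within GC decile they were 2.60 and 59.0. The relative knockdown difference turned from 0.585 points to -1.40 with means in place of medians, -0.106 with windows centred within 1 kb, -0.305 with the window at the start of most transcripts and -0.0565 without day 7. The day pattern called 13 members on the percent scale and 10 on the arcsine square root scale, and 0 after quantile normalisation. The members higher in the knockdown on every day numbered 2 after quantile normalisation and 2 after centring each library (Cbx6 and L3mbtl2 in both), 5 without day 4 (Aebp2, L3mbtl2, Pcgf1, Phc2 and Rnf2), 2 without day 5 (Cbx6 and Tet1), 1 without day 6 (Jarid2) and 0 without day 7. The members lower on every day numbered 0 after quantile normalisation, 2 with the window at the start of most transcripts (Pcgf3 and Cbx7), 3 without day 4, 3 without day 5, 7 without day 6 and 6 without day 7. Pcgf3 was in each of the latter 4 counts. The cause of these shifts between settings was not tested. Signs agree more readily over 3 days than over 4. The shares of other promoters were not computed for these alternatives, so the counts cannot be read as an excess.

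Windows of over 1.5 kb average a promoter with its flanks, so a narrow open site is diluted. 30 members had windows centred within 1 kb of the 5′ end, and 31 remained without windows at 0 or 100 percent. Knockdown and Nons libraries were paired by day, which was the block of the fit. Without the day block 0 members were called for the knockdown and 2 had an unadjusted p under 0.05. Limma called 0 members for the knockdown in every alternative run.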

Other observations

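The accessibility of member genes was also read along the 10 kb on either side of the 5′ end, in bins of 1 kb by window centre. Bins held few member windows, so the means are descriptions. In the bin centred 500 bp inside the gene, 14 member windows had a mean of 23.2% at day 0 and 42.4% in Nons at day 5, against 18.2% and 32.2% over other genes. In the knockdown at day 5 the same bin had 36% against 28.5%. Averaged over the 9 libraries the member excess was largest in that bin, at 6.09 points, and was 3.23 points in the next bin, centred 1500 bp inside. It was not limited to the 5′ end. In the 16 bins centred over 2 kb away the mean excess ran from -0.0521 to 2.88 points and was above 0 in 15. At 5500 bp upstream, 16 member windows had 17.5% at day 0 and 27.6% in Nons at day 5, against 12.5% and 22.9%, and at 5500 bp inside the gene, 19 had 15.9% and 25.9%, against 12.6% and 22.3%.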
